A study of Mus musculus with 6 samples.

Results

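The genes described here are the Wnt ligands, their receptors, the antagonists of the pathway, its intracellular regulators and its nuclear factors. They were chosen by gene symbol, from the Wnt, Frizzled (Fzd), Sfrp and Dkk families together with 18 singly named genes, of which 17 were found, and they number 54 of the 19938 genes measured. The samples are 6 lines of mouse iPS cells (induced pluripotent stem cells), each a single clone raised from 1 colony and read on 1 whole-transcript array. All lines came from embryonic fibroblasts of OG2 mice, which carry an Oct4-driven green fluorescent reporter, and all received retroviral Sox2, Klf4, Oct4 and c-Myc. Control clones 2, 3 and 4 also received an shRNA against luciferase, which has no target in mouse cells, and shECAD clones 4, 8 and 9 an shRNA against E-cadherin. Infected cells were moved to feeder cells on day 6 and colonies were picked on day 14. The clones were kept on feeders, which were eliminated before the RNA was extracted, per the labels. There were n = 3 clones per group throughout. Because the labels do not say that the lines came from separate infections, the p-values cover the spread between clones and nothing wider.

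Wnt proteins are secreted, lipid-modified ligands that bind Frizzled receptors with the co-receptors Lrp5 and Lrp6. In the canonical branch this stops a complex built on axin from degrading beta-catenin, which then acts with Tcf and Lef factors on target genes, while other branches act on cell shape and polarity. E-cadherin, the product of Cdh1, binds the same beta-catenin at the cell membrane. In mouse pluripotent cells canonical Wnt signalling is known for supporting self-renewal, in part by lifting repression by Tcf7l1.

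Values are log2 expression values, on which a difference of 1 is a doubling, and a probeset's value is not comparable with that of another gene. Differences are shECAD minus control. A gene passed the test when its p-value from limma, a linear model fitted to all genes, was below 0.05 after Benjamini-Hochberg adjustment over all 19938 genes. Cdh1, the shRNA target, was 9.18, 9.60 and 9.07 in the control clones and 6.75, 6.92 and 7.81 in the shECAD clones, a log2 fold change of -2.13 ± 0.27 (SE, limma adjusted p = 0.00683). A two-sided exact permutation test of Cdh1 gave p = 0.1, the smallest that 3 clones against 3 allow. The pluripotency gene Pou5f1 was 10.64 ± 0.12 in the control and 10.59 ± 0.27 in the shECAD clones (SD, n = 3), and Nanog 10.37 ± 0.40 and 10.41 ± 0.44. These 2 do not stand for the list of 16 pluripotent cell markers, in which 12 had log2 differences below 0. That list is given with the marker lists. The array medians lay between 5.11 and 5.30 and no detection call came with the values. A gene's group mean was therefore called dim where it did not exceed the 95th percentile of 1015 olfactory receptor genes on every array of that group, the highest of which was 4.61 in the control and 4.86 in the shECAD clones. By that measure 14 of the 54 Wnt genes were dim in both groups and 36 in neither.

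Of the 54 Wnt genes, 5 passed the test. The ligand gene Wnt5a and the antagonist gene Dkk2 were higher in the shECAD clones, and the receptor gene Fzd5 and the antagonist genes Sfrp1 and Notum were lower. These 5 are 9.26% of the Wnt genes, beside 3.12% of all genes, and the 2 higher and 3 lower calls stand beside 1.9% and 1.23% of all genes called in each direction. The 623 calls over all genes were 378 higher and 245 lower, and turned to 298 higher and 383 lower when each array was centred on its median. The same 5 Wnt genes were called under that scaling. The log2 fold change was above 0 in 38 Wnt genes and below 0 in 16, with a median of 0.26 beside 0.03 for all genes. Under median centring the split was 34 to 20 and the medians were 0.17 and -0.07. Among the 29 Wnt genes at or above the median level it was 16 to 13. Their median was 0.17, beside -0.09 for all genes at that level.

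**Figure D1:**
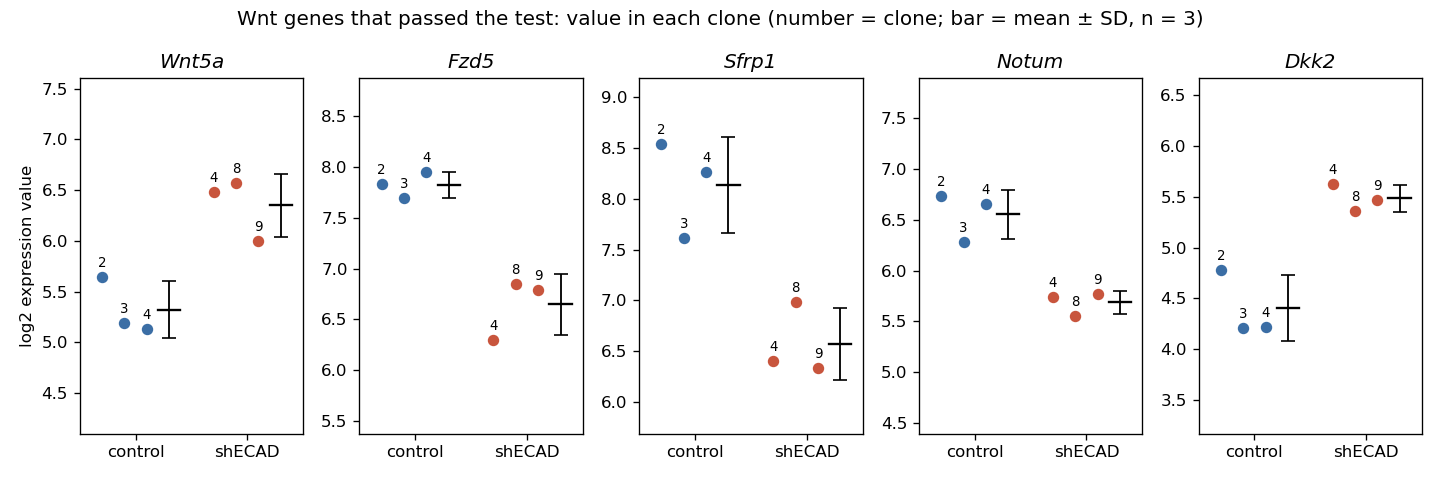
Log2 expression of the 5 Wnt genes that passed the test in each clone (numbered points, control in blue and shECAD in red), with the mean and SD of 3 clones beside them; all panels span the same log2 range. Wnt5a and Dkk2 lay higher and Fzd5, Sfrp1 and Notum lower in every shECAD clone than in any control clone.

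Without control clone 4 none of the 54 genes was called by limma, against 14 with an unadjusted p below 0.05, and 146 genes were called over the whole table. Without shECAD clone 4 the call of Fzd5 was left, without shECAD clone 8 those of Fzd5 and Sfrp1, without control clone 3 those of Fzd5, Sfrp1 and Notum, and without shECAD clone 9 those of Fzd5, Sfrp1, Dkk2 and Wnt5a. Without control clone 2 those 4 were called together with Dkk3.

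Most markers of fibroblasts and feeder cells moved with the groups. Of 25 such genes 16 rose (64.0%, beside 1.9% of all genes) and 0 fell (beside 1.23%). The marker lists were chosen with earlier results of these data known, so such shares describe the lists and test nothing. The log2 difference was above 0 in 24 of the 25. The mean of the list was 5.74 to 6.69 in the control clones and 7.32 to 7.64 in the shECAD clones. Lum, Dcn and Pdgfra, at log2 differences of -0.23, 0.48 and 0.38, were among the markers that did not pass. Fap, which marks activated fibroblasts, was dim in both groups. Of 16 pluripotent cell markers 0 passed the test by limma and 6 had an unadjusted p below 0.05, with list means of 9.35 to 9.63 and 8.85 to 9.31. Their log2 differences were below 0 in 12 of the 16, with a median of -0.39, and in 4 (25.0%, beside 12.5% of all genes) the groups did not overlap with the shECAD clones all lower. These 4 were Dppa4, Fgf4, Utf1 and Tdgf1, at -0.70, -0.79, -0.46 and -0.50. In such whole-culture RNA, fewer cells of a type and less RNA per cell cannot be told apart.

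The groups did not overlap in 17 of the 54 genes (31.5%), beside 23.6% of all genes. In 14 of them (25.9%) the shECAD clones were all higher, beside 11.1% of all genes, and in 3 (5.56%) all lower, beside 12.5%. The 3 lower genes were Fzd5, Sfrp1 and Notum. The 14 higher ones were Wnt2, Wnt3, Wnt5a and Wnt8a among ligands, Fzd1, Fzd6, Lrp5 and Lgr5 among receptors, Dkk2, Dkk3 and Sfrp4 among antagonists, the feedback genes Nkd2 and Rnf43, and Sp5. Of these, Wnt2, Lgr5, Nkd2, Rnf43 and Sp5 were dim in both groups and Dkk2 in the control clones.

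**Figure D2:**
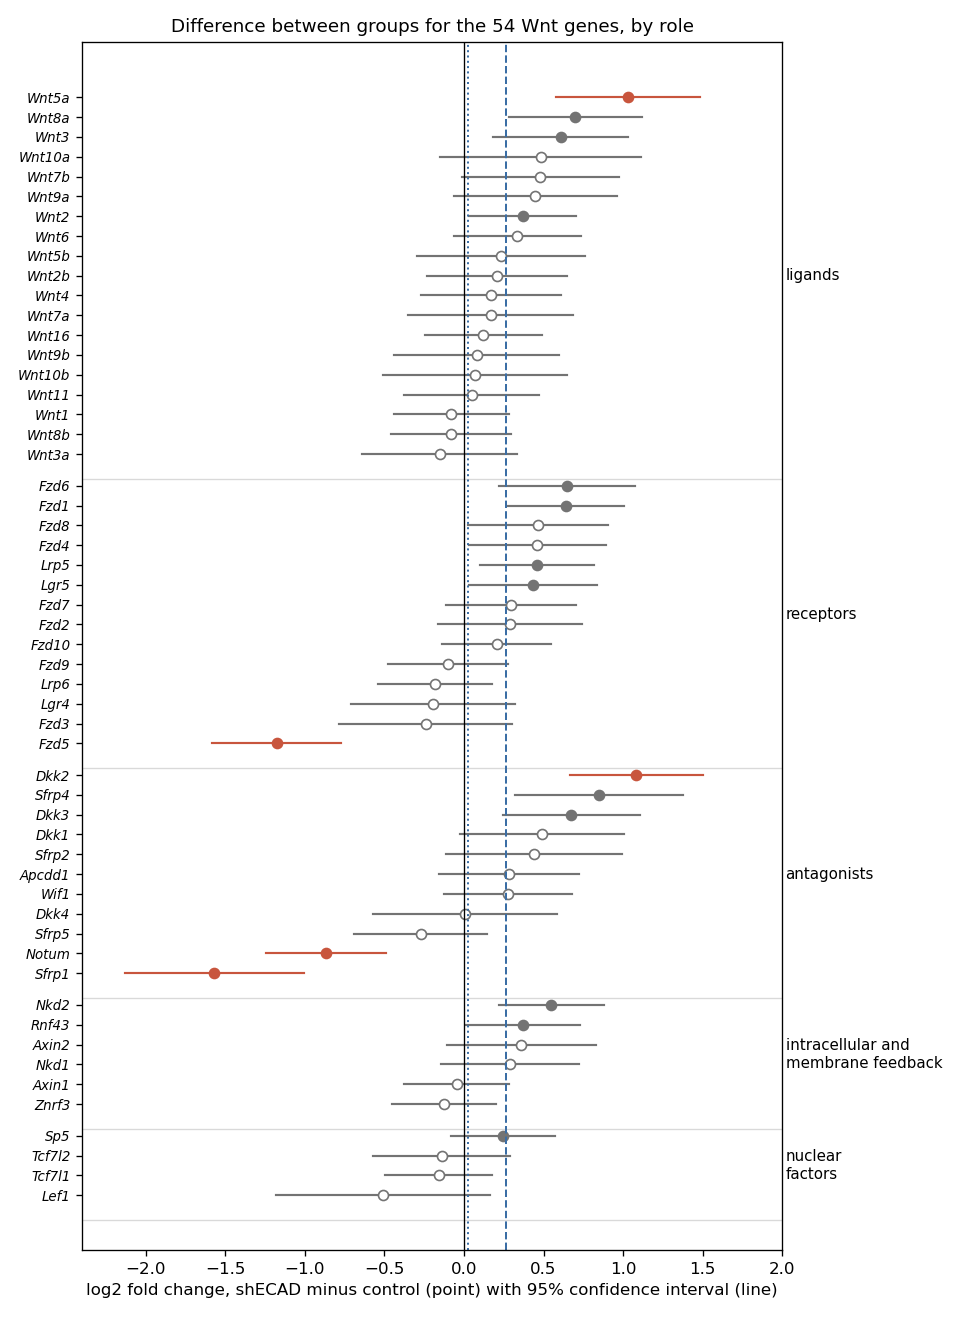
Log2 fold change of each of the 54 Wnt genes (point) with its 95% confidence interval (line), by role. Red marks the 5 genes that passed the test and filled points the 17 whose groups do not overlap; the dotted and dashed vertical lines are the medians of all genes (0.03) and of the Wnt genes (0.26).

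Of the 54 genes, 35 have a promoter sequence in the RefSeq table used here (build GRCm38.p6), covering 250 bases before to 50 after a transcript start. Fzd5 and Dkk2 are the 2 called genes among them, and Sp5, known as a direct target of beta-catenin, is the Wnt gene with more than 1 match to the motifs searched. Their 250 bases before the start are shown so that these can be compared. They lie at chr1:64737751-64738000 on the minus strand (Fzd5), chr3:132085042-132085291 on the plus strand (Dkk2) and chr2:70474673-70474922 on the plus strand (Sp5). Sequences run 5′ to 3′ along the gene, and capitals mark matches to CTTTGAT or CTTTGTT, letters that Tcf and Lef factors are known to bind, on either strand.
Fzd5: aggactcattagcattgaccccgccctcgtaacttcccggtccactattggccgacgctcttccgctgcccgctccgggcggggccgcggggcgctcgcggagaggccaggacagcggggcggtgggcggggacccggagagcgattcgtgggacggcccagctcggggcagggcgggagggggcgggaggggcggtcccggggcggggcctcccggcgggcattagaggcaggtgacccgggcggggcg
Dkk2: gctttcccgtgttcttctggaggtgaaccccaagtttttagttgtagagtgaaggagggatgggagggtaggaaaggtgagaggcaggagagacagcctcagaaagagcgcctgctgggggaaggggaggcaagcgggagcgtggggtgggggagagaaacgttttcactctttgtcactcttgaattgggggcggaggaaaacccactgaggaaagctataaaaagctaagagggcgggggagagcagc
Sp5: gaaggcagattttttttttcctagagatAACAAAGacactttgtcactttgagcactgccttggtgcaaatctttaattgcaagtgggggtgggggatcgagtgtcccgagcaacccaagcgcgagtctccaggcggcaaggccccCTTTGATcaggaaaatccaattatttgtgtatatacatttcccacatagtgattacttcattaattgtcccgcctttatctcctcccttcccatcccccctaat
Fzd5 and Dkk2 have 0 matches in the whole window and Sp5 has 2, CTTTGAT beginning 104 bases before the start and CTTTGTT on the opposite strand beginning 222 bases before it. The window of Fzd5 is 75.7% G and C with 38 CG dinucleotides, that of Dkk2 57.7% with 11 and that of Sp5 45.0% with 6, beside medians of 52.7% and 7 over 32851 promoter windows. A match was found in 7 of 43 windows of Wnt genes (16.3%) and in 9.33% of all windows. Besides Sp5 the genes with a match were Fzd7, Wnt5b, Wnt11, Wnt3, Dkk1 and Tcf7l2, and none of these 7 passed the expression test. The motifs do not overlap each other in any of these windows, and a match shows only that the letters are there.

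Among 19 ligand genes, 1 rose (5.26%, beside 1.9% of all genes) and 0 fell (beside 1.23%). Wnt5a, which encodes a ligand known mainly for signalling without beta-catenin, was 5.64, 5.20 and 5.13 in the control clones and 6.49, 6.58 and 6.00 in the shECAD clones, in the order in which the clones were named above. The lowest shECAD clone, number 9, still lay above the highest control clone, number 2. Its log2 fold change was 1.03 ± 0.20 (SE, limma adjusted p = 0.0295), or 2.04-fold, with a 95% interval of 149% to 280% of the control level. Wnt5a lost its call when control clone 3 or 4 or shECAD clone 4 or 8 was left out (adjusted p at most 0.115), and when all 28853 probesets were tested on their own (0.0621).

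Wnt8a and Wnt3, which encode canonical ligands known from the primitive streak of the embryo, had the next largest changes among ligands and did not pass the test. Wnt8a was 4.67, 5.17 and 5.13 in the control clones and 5.88, 5.43 and 5.77 in the shECAD clones. Wnt3 was 4.53, 4.71 and 5.17 and then 5.59, 5.36 and 5.28. In both genes shECAD clone 4 was the highest of the 6 and control clone 2 the lowest. The log2 fold changes were 0.70 ± 0.19 for Wnt8a and 0.61 ± 0.19 for Wnt3 (SE, adjusted p from limma of 0.0791 and 0.121). The mean of 9 primitive streak and mesoderm markers overlapped between the groups, at 4.93 to 5.28 in the control and 5.21 to 5.97 in the shECAD clones. All 9 had log2 differences above 0, with a median of 0.25. In 2 of them (22.2%, beside 11.1% of all genes) the shECAD clones were all higher. By limma 0 of the 9 passed the test (1 had an unadjusted p below 0.05), and the part of such cells in these values was not tested.

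The remaining 16 ligand genes had log2 fold changes from -0.15 (Wnt3a) to 0.48 (Wnt10a). Wnt1, Wnt2, Wnt2b, Wnt7a, Wnt8b, Wnt11 and Wnt16 were dim in both groups. Wnt3a, the ligand often added to pluripotent cell cultures, was 5.55 ± 0.26 in the control and 5.40 ± 0.40 in the shECAD clones, and the 95% interval of its log2 difference ran from -0.64 to 0.34. Wnt11, another ligand of the branches without beta-catenin, had a log2 difference of 0.05 with an interval from -0.38 to 0.47. Wnt5b, the closest relative of Wnt5a, had one of 0.23 with an interval from -0.30 to 0.76, which overlaps the interval of Wnt5a (0.58 to 1.48). Wnt4 had 2 probesets, with log2 differences of 0.17 in the brighter and 0.47 in the other, and neither passed.

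Among 14 receptor genes, 1 fell (7.14%, beside 1.23% of all genes) and 0 rose (beside 1.9%). Fzd5, a Frizzled receptor gene that also serves as a receptor for Wnt5a, was 7.84, 7.69 and 7.95 in the control clones and 6.30, 6.85 and 6.79 in the shECAD clones. The control clones lay within 0.26 of each other, and every shECAD clone was below all of them. The log2 fold change was -1.18 ± 0.18 (SE, limma adjusted p = 0.0123), so that the shECAD level was 44.2% of the control level (95% interval 33.4% to 58.5%). Of the 5 called genes it had the smallest adjusted p, and its call was lost only without control clone 4 (adjusted p = 0.0503) among the 6 fits that left out a clone.

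The other Frizzled genes differed from Fzd5 in sign or in size. Fzd6, whose product is known to act in planar cell polarity, was 6.89, 7.07 and 6.36 in the control clones and 7.38, 7.47 and 7.40 in the shECAD clones. Fzd1 was 6.40, 6.31 and 6.12 and then 7.10, 6.95 and 6.70. In neither gene did the groups overlap, and the log2 fold changes of 0.65 ± 0.19 and 0.64 ± 0.17 (SE, adjusted p from limma of 0.103 and 0.0691) did not pass the test. Fzd1 passed after quantile normalization (adjusted p = 0.0409), among genes at or above the median level (0.0399) and with array quality weights (0.0214), and Fzd6 with array quality weights (0.0427). Fzd2, Fzd4, Fzd7, Fzd8 and Fzd10 had log2 differences between 0.20 and 0.47, and Fzd3 and Fzd9 of -0.24 and -0.10. Of these, Fzd4 was dim in the control clones.

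The co-receptor genes did not pass. Lrp5 was 6.76, 6.94 and 7.03 in the control clones and 7.34, 7.20 and 7.56 in the shECAD clones, without overlap (log2 fold change 0.46 ± 0.16 SE, limma adjusted p = 0.167). Lrp6, its partner in the family, had a log2 difference of -0.18 with a 95% interval from -0.54 to 0.18. Lgr4 and Lgr5 encode receptors for R-spondins, which amplify Wnt signals. Lgr4 was 8.37, 9.27 and 8.46 and then 8.43, 8.69 and 8.39, so that control clone 3 stood above all others. Lgr5 was dim in both groups.

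Of 11 antagonist genes, 2 fell (18.2%, beside 1.23% of all genes) and 1 rose (9.09%, beside 1.9%). Sfrp1 encodes a secreted Frizzled-related protein, which binds Wnt ligands outside the cell. It was 8.54, 7.62 and 8.27 in the control clones and 6.40, 6.98 and 6.34 in the shECAD clones. The gap between the groups lay between control clone 3 and shECAD clone 8. With a log2 fold change of -1.57 ± 0.25 (SE, limma adjusted p = 0.0141) it had the largest change of the 54 genes, and the shECAD level was 33.7% of the control level (95% interval 22.9% to 49.8%). Its call was lost without control clone 4 (adjusted p = 0.0517) and without shECAD clone 4 (0.0504).

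Notum encodes an extracellular enzyme that removes the lipid from Wnt ligands, and it is itself a target of canonical signalling. It was 6.73, 6.28 and 6.65 in the control clones and 5.74, 5.55 and 5.77 in the shECAD clones, with the shECAD clones within 0.22 of each other and below every control clone. The log2 fold change was -0.87 ± 0.17 (SE, limma adjusted p = 0.0278), or 54.8% of the control level (95% interval 42.2% to 71.1%). Each of the 5 fits that left out a clone other than control clone 3 ended the call of Notum (adjusted p up to 0.112), and so did a test of every probeset on its own (0.0547).

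Dkk2 encodes a member of the Dickkopf family that binds Lrp5 and Lrp6. It was 4.78, 4.21 and 4.22 in the control clones and 5.63, 5.36 and 5.47 in the shECAD clones, again without overlap. The log2 fold change was 1.08 ± 0.19 (SE, limma adjusted p = 0.0181). The control mean of 4.40 was dim, so that this value is the difference between the deposited values, and no fold is given. Dkk2 lost its call when control clone 3 or 4 or shECAD clone 4 or 8 was left out (adjusted p at most 0.0784).

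Within each antagonist family the members differed in sign or size. Among the secreted Frizzled-related genes, Sfrp4 was 4.44, 4.72 and 4.996 in the control clones and 5.53, 6.05 and 5.12 in the shECAD clones. Its log2 fold change of 0.85 ± 0.24 (SE, limma adjusted p = 0.0866) did not pass and was opposite in sign to that of Sfrp1. It passed with array quality weights (0.0474). Sfrp2 had a log2 difference of 0.44 and Sfrp5 of -0.27, and their groups overlapped. Sfrp5 was dim in the shECAD clones.

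Of the Dickkopf genes, Dkk3, which encodes a divergent member of the family, was 5.83, 5.21 and 5.19 in the control clones and 5.95, 6.14 and 6.15 in the shECAD clones. Control clone 2 lay near the shECAD clones, and without it Dkk3 passed the test (log2 fold change 0.89, limma adjusted p = 0.0313), while with all clones it did not (0.68 ± 0.19 SE, adjusted p = 0.0939). Dkk1 and Dkk4 were dim in both groups, with log2 differences of 0.49 and 0.01. Wif1, a secreted Wnt-binding inhibitor, was dim as well, and Apcdd1, a membrane-bound inhibitor, had a log2 difference of 0.28 with a 95% interval from -0.16 to 0.72.

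None of the 6 intracellular and membrane regulators passed the test in limma, and 2 had an unadjusted p below 0.05. Nkd2, whose product binds Dishevelled, was 4.19, 4.25 and 4.41 in the control clones and 4.91, 4.74 and 4.84 in the shECAD clones, a log2 difference of 0.55 ± 0.15 (SE, limma adjusted p = 0.0806) at dim levels. Rnf43, which encodes a ubiquitin ligase that removes Frizzled receptors, was 4.44, 4.15 and 4.28 and then 4.50, 4.63 and 4.86, also dim. Axin2, a feedback inhibitor widely used as a readout of canonical signalling, was 4.98, 5.57 and 4.91 and then 5.43, 5.30 and 5.80. Control clone 3 lay within the range of the shECAD clones, and the log2 difference of Axin2 was 0.36 ± 0.21 (SE, limma adjusted p = 0.409) with a 95% interval from -0.11 to 0.83. The log2 differences of Axin1, the scaffold of the complex that degrades beta-catenin, and Znrf3, the relative of Rnf43, were -0.05 and -0.13, with intervals from -0.38 to 0.28 and from -0.45 to 0.20.

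None of the 4 nuclear genes passed either, and 0 had an unadjusted p below 0.05 in limma. Lef1, which encodes a partner of beta-catenin on DNA and is itself a target, was 6.29, 7.42 and 6.40 in the control clones and 5.72, 6.31 and 6.55 in the shECAD clones. Control clone 3 stood above the other 5 clones, and the log2 difference of -0.51 ± 0.30 (SE, limma adjusted p = 0.416) became -0.15 without it. Tcf7l1, the repressor of the pluripotency network, had a log2 difference of -0.16 with an interval from -0.50 to 0.18, and Tcf7l2 one of -0.14 with an interval from -0.57 to 0.29. Sp5, whose promoter letters are shown above, was 3.82, 3.90 and 3.90 and then 4.08, 4.26 and 4.02. These values were dim in both groups, and the log2 difference was 0.24 ± 0.15 (SE, limma adjusted p = 0.424).

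The clones of a group did not move alike. The median pooled SD within groups was 0.27 over the Wnt genes and 0.21 over all genes, and it was highest in Lef1 (0.54) and Wnt10a (0.50) and lowest in Znrf3 (0.09) and Sp5 (0.10). shECAD clone 9 was the highest of its group in 34 of the 54 genes (63.0%), beside 42.3% of all genes. shECAD clone 8 was the lowest in 29 (53.7%), beside 36.0% of all genes. Among the control clones, clone 2 was the highest in 27 of the 54 genes (50%, beside 37.2% of all genes), and in 13 of the 19 ligands, while clone 3 was the lowest in 25 (46.3%, beside 39.7%). The array of shECAD clone 9 also had the highest median over genes (5.49, with 5.29 to 5.44 in the others) and the highest 95th percentile of olfactory receptor genes. The Y-linked gene Eif2s3y was 8.45 in control clone 3 and 7.95 in shECAD clone 9 and between 3.04 and 4.82 in the others, and the same 5 Wnt genes were called with a term for it.

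**Figure D3:**
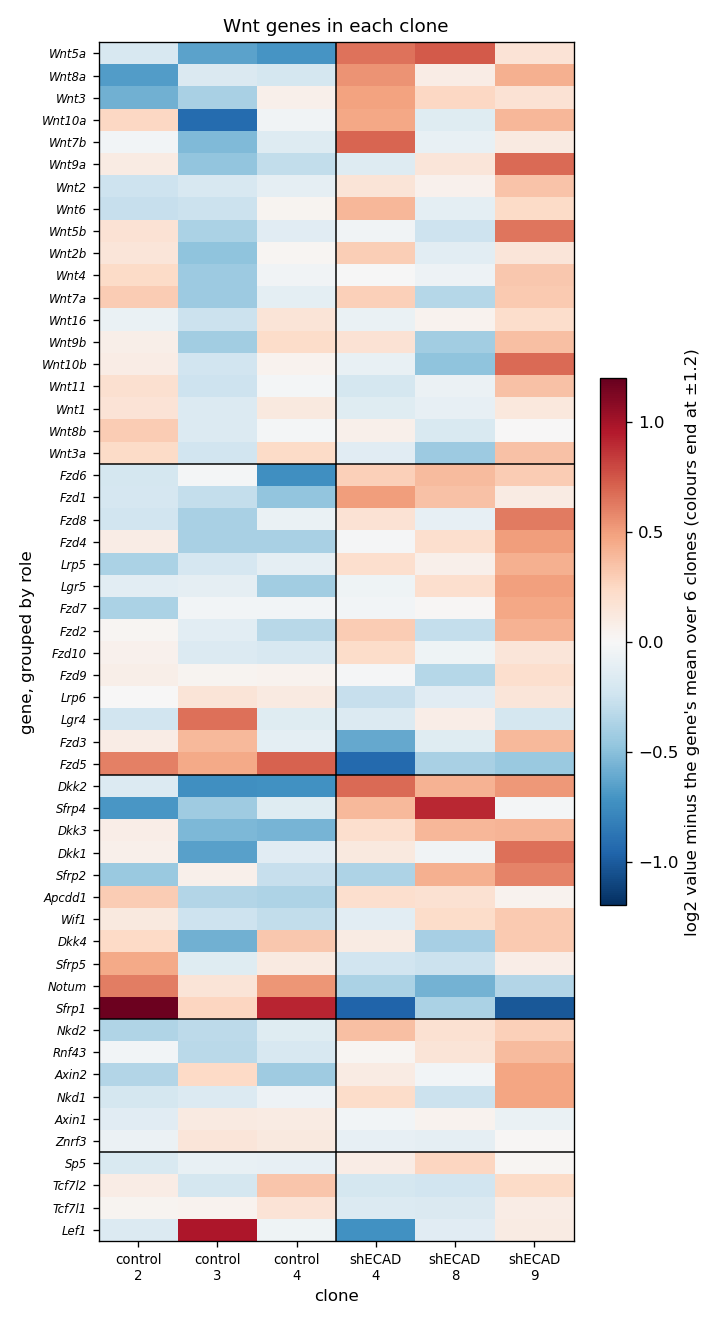
Each of the 54 Wnt genes in each of the 6 clones, as the log2 value minus the gene's mean over the clones (red above, blue below), with genes grouped by role and ordered by fold change. Fzd5, Notum and Sfrp1 are blue in all 3 shECAD clones, and the columns of shECAD clone 9 and control clone 3 lean red and blue over many ligands.

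Other genes of the pathway were taken from a list of 62 regulators. Of these 4 rose (6.45%, beside 1.9% of all genes), 0 fell (beside 1.23%) and 58 did not pass, and the list's median log2 difference was 0.11 beside 0.03 for all genes. Wls, which encodes the carrier that brings Wnt proteins to the cell surface, was 6.63, 6.62 and 6.07 in the control clones and 7.68, 7.93 and 7.57 in the shECAD clones. It rose 2.44-fold (1.29 ± 0.19 SE on the log2 scale, limma adjusted p = 0.0119), and it stayed called with each of the 6 clones left out. Ror1, a receptor known to bind Wnt5a, was 4.89, 5.09 and 5.20 and then 5.74, 5.94 and 6.20, a rise of 1.87-fold (0.90 ± 0.17, limma adjusted p = 0.0268). Ror2, its relative, had a log2 difference of 0.04 with a 95% interval from -0.35 to 0.43.

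Prickle1, a planar polarity gene, was 5.53, 5.75 and 5.51 in the control clones and 6.50, 6.61 and 7.49 in the shECAD clones, where clone 9 was the highest (2.42-fold, limma adjusted p = 0.0269). Cthrc1, which encodes a secreted protein known to bind Wnt and Frizzled proteins, was 5.88, 6.45 and 5.48 and then 7.35, 7.05 and 6.94 (2.26-fold, limma adjusted p = 0.0302). In all 4 genes the groups did not overlap. Ror1 lost its call with any clone but shECAD clone 4 left out (adjusted p up to 0.0775), Cthrc1 with any but control clone 3 (up to 0.102), and Prickle1 without control clone 2 or 4 or shECAD clone 8 (up to 0.0933).

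Ctnnb1, Apc, Gsk3b and Csnk1e, of the canonical branch, did not pass the test. Ctnnb1, which encodes beta-catenin, was 9.93, 9.89 and 9.70 in the control clones and 9.83, 9.92 and 9.93 in the shECAD clones, with a log2 difference of 0.06 and a 95% interval from -0.27 to 0.38. The log2 differences of Apc and Gsk3b, of the complex that degrades beta-catenin, were 0.02 (interval -0.30 to 0.34) and 0.18 (-0.20 to 0.56). Csnk1e, which encodes a casein kinase that acts on Dishevelled, was 8.03, 7.63 and 7.78 and then 7.25, 7.21 and 7.46, without overlap (log2 difference -0.50 ± 0.17 SE, limma adjusted p = 0.135). Dvl3, a Dishevelled gene, was also without overlap and lower in the shECAD clones, at -0.19 ± 0.14 SE (limma adjusted p = 0.538). In the list of 62 regulators the groups did not overlap in 18 genes (29.0%, beside 23.6% of all genes). Of these, 12 were higher in the shECAD clones (19.4%, beside 11.1%) and 6 lower (9.68%, beside 12.5%). Porcn, which encodes the enzyme that attaches the lipid to Wnt proteins, was 7.37, 7.04 and 7.66 and then 6.95, 7.09 and 5.92, and shECAD clone 9 stood lowest (log2 difference -0.71 ± 0.29 SE, limma adjusted p = 0.23). Of 17 measured genes of a further list of Wnt targets, 1 rose (5.88%, beside 1.9% of all genes) and 0 fell, with a median of 0.27 beside 0.03. It was Ccnd2, the gene of cyclin D2, at 8.43, 7.61 and 7.19 in the control clones and 9.51, 9.46 and 9.20 in the shECAD clones (3.13-fold, limma adjusted p = 0.0148), and it lost its call without shECAD clone 4 (0.0516) or shECAD clone 8 (0.0616). Myc and Ccnd1, in the same list, had log2 differences of 0.27 and 0.57 that did not pass. In 5 of the 17 genes the groups did not overlap (29.4%, beside 23.6% of all genes). In 4 of these the shECAD clones were all higher (23.5%, beside 11.1%) and in 1 all lower (5.88%, beside 12.5%). The higher ones were Ccnd2, Cd44, Ascl2 and Sox9 (0.68), and the lower one was Nr5a2 (-0.61). Apc, Gsk3b, Csnk1e, Dvl3, Ctnnb1, Ror2, Porcn, Myc and Ccnd1 were named for their place in the pathway after their values were seen. Cd44, Ascl2, Esrrb and Mixl1, of the target list, were named for the size of their log2 differences of 1.45, 0.995, -0.81 and 0.80. They did not pass (adjusted p from limma of 0.0727, 0.082, 0.181 and 0.34), and Ascl2 was dim in the control clones.

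**Figure D4:**
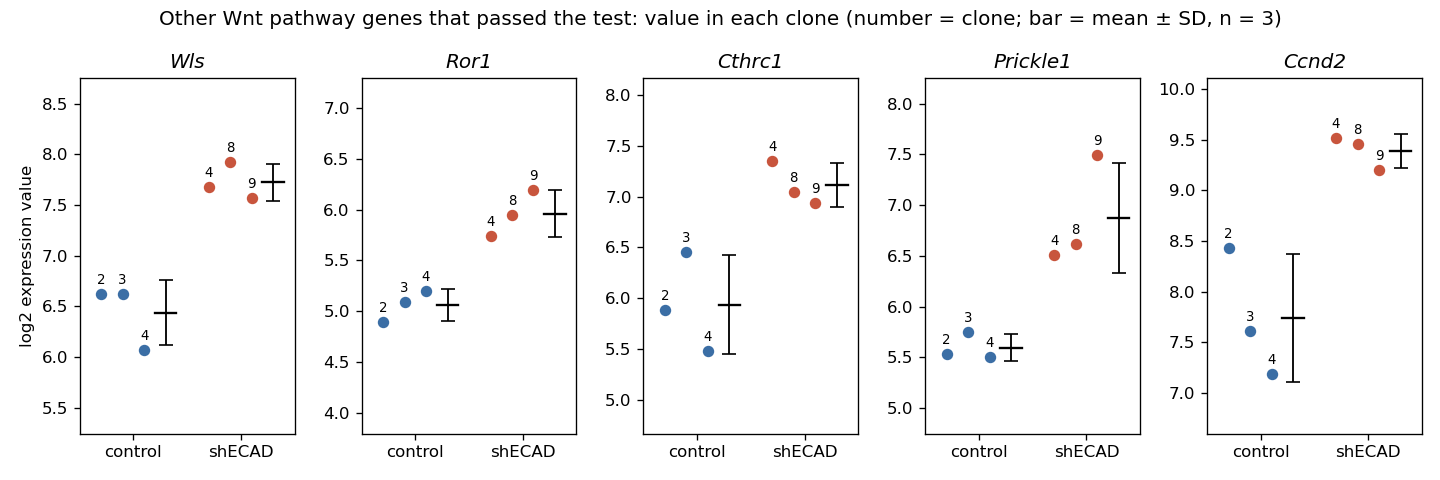
Log2 expression of the 5 genes of the further pathway and target lists that passed the test in each clone (numbered points, control in blue and shECAD in red), with the mean and SD of 3 clones beside them. Every shECAD clone lay above every control clone in Wls, Ror1, Cthrc1, Prickle1 and Ccnd2.

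When the fibroblast and feeder mean, at 5.74 to 6.69 in the control and 7.32 to 7.64 in the shECAD clones, entered the limma fit as a covariate, 0 of the 19938 genes were called, 745 genes had an unadjusted p below 0.05, and the median SE was 0.42 instead of 0.18.

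In that fit the log2 fold change of Wnt5a was 0.34 ± 0.44, that of Dkk2 0.57 ± 0.43 and that of Wls 0.51 ± 0.39 (SE); without the covariate they were 1.03, 1.08 and 1.29. Ccnd2 went from 1.65 to 0.25 ± 0.43 and Cthrc1 from 1.18 to 0.74 ± 0.55. Fzd5 had -1.21 ± 0.45, Notum -0.84 ± 0.42 and Sfrp1 -2.10 ± 0.58, and Ror1 had 1.23 ± 0.41 and Prickle1 1.36 ± 0.59. Wnt3 and Wnt8a had 1.39 ± 0.39 and 1.38 ± 0.40, against 0.61 and 0.70 without the covariate. Dkk3 and Fzd6 turned to -0.07 and -0.01. The list does not overlap between the groups, so that marker level and shRNA cannot be told apart here.

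**Figure D5:**
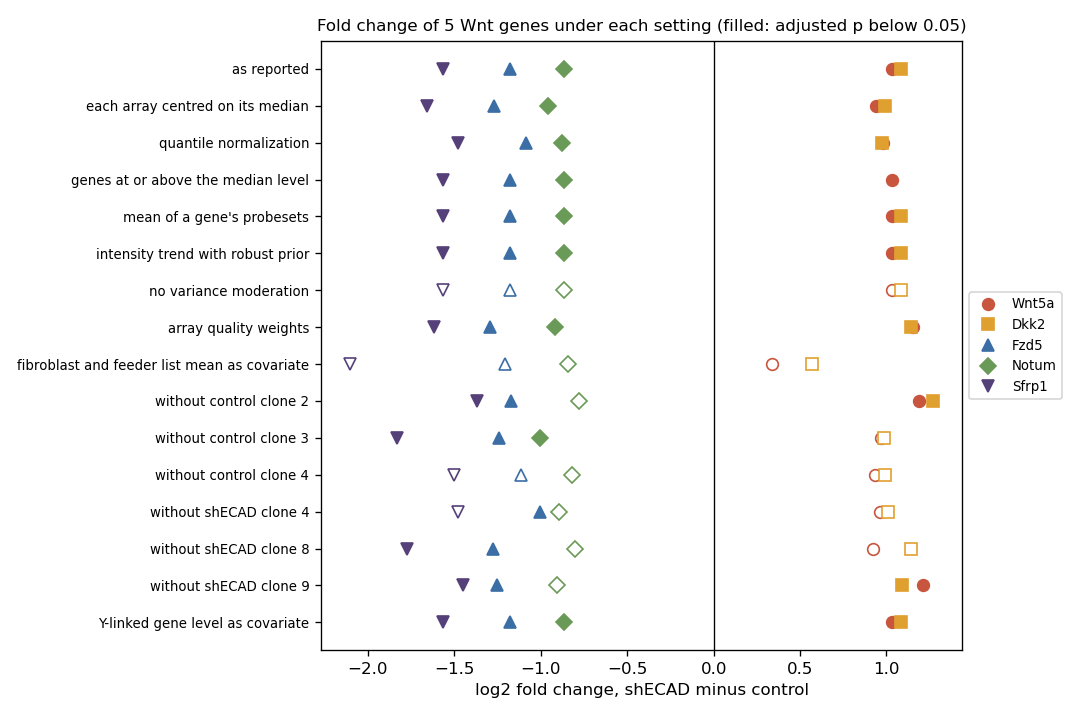
Log2 fold change of the 5 called Wnt genes under each alternative setting, with a row for each setting; filled marks have an adjusted p below 0.05 and open marks do not. The signs hold for every mark drawn (Dkk2 lies below the median level and has none there), the marks of Wnt5a and Dkk2 move towards 0 with the fibroblast and feeder covariate, and all marks are open without control clone 4, without variance moderation and with that covariate.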

How the data were processed

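The authors deposited log2 expression values per probeset. The submitters' processing notes name RMA and Partek, and no version, setting or genome build is given in the sources used here. Per the labels, biotinylated cDNA was made from 100 ng of RNA. The 28853 probesets were named through the platform annotation (21789 with 1 symbol, 1621 with several, 5443 with none here); 21698 matched RefSeq (GRCm38.p6) by Entrez identifier, and 0 symbols changed. For each gene the probeset with the highest mean over 6 arrays was kept, and the values were used as deposited, with no filter. The shECAD and control clones were compared by lmFit and eBayes of limma 3.58.1 at the default prior, in R 4.3.3, without covariates. No 2 arrays had identical values. Figures used matplotlib 3.10.9.

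The Wnt genes and all lists were chosen with earlier results of these data known. Values in every clone are given for called Wnt genes, for those whose groups do not overlap with a log2 change of 0.5 or more, for the 2 largest changes per role, and for some others described for their role; of the further lists, for every called gene. The lists of endoderm (10 genes), neural (9) and trophoblast (9) markers had 0, 1 (Nes, higher) and 0 limma calls, with 3, 2 and 2 unadjusted p-values below 0.05.

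The fit was tested on simulated data, with 50 changed genes at each size. It recovered 2% of log2 changes of 0.5, 56% of 1, 96% of 2 and 100% of 3, with 1 false call. The simulated noise was independent between genes, so shifts shared by many genes of a clone were not simulated. The false call is therefore no error rate for these clones. Alternatives were other scalings, filters, variance priors, weights, thresholds and probeset rules, the fibroblast covariate, leaving out each clone and, added after the data were seen, a term for clones with Eif2s3y above 7.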

Additional observations from a re-analysis of the deposited data

How the results depend on the processing

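No paired analysis was possible because the groups share 1 clone number, which only names a clone. The directions of the 5 called Wnt genes held under every alternative in which each was tested (Dkk2 was not among the genes at or above the median level), and the same 5 were called after median centring, with probesets averaged, with an intensity trend and robust prior, and with the term for Y-linked gene level. Without variance moderation limma called 3 genes over the whole table, 0 Wnt genes higher, 0 lower and 0 of the further pathway genes (14 Wnt genes had an unadjusted p below 0.05), and Cdh1 had a log2 fold change of -2.13 with an adjusted p of 0.194. With the fibroblast covariate all 4 counts were 0 in limma (7 Wnt genes had an unadjusted p below 0.05), and Cdh1 had -2.16 (adjusted p = 1); Dkk3 turned to -0.071 and Fzd6 to -0.008. Array quality weights gave 1067 calls and 5 higher Wnt genes. An adjusted p of 0.1 gave 1278 calls, 7 higher Wnt genes and 9 further pathway genes instead of 5. With 1 clone left out, calls ran from 146 to 543 over the whole table, from 0 to 3 for Wnt genes higher and from 0 to 3 for those lower, and from 1 to 5 for further pathway genes. The median of the Wnt genes ran from 0.168 to 0.33 and Cdh1 from -2.45 to -1.92. The cause of these moves was not tested. A group of 3 arrays limits the precision: 95% intervals of the Wnt genes were 0.33 to 0.67 wide on each side.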
